A study of Mus musculus with 7 samples.

Results

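Integrins, laminins and the proteins that tie them together in the basement membrane were followed in the atrioventricular canal of Hand2 null and wild-type mouse embryos. The members were the rows named as integrin alpha or beta subunits, as laminin alpha, beta or gamma chains, or as Nid1, Nid2, Hspg2, Agrn, Npnt or Fn1, with at least 10 reads over the 7 libraries. This rule gave 42 of 23284 genes, and none that matched by name fell under the read minimum. They were 17 integrin alpha subunits, 8 integrin beta subunits, 5 laminin alpha, 3 laminin beta and 3 laminin gamma chains, and 6 linkers.

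The null group held 4 libraries (replicates 1 to 4) from embryos with Hand2 d/d, an allele whose coding part was removed by Cre in the germline, so every tissue of these embryos lacked the gene. The wild-type group held 3 libraries (replicates 2 to 4), since a further pool had RNA of lower quality and was left unsequenced. All embryos were outbred NMRI mice with 18 to 23 somites, staged in the labels to early on embryonic day 9 although the titles read day 9.5. Each library was bulk RNA from 4 canals, cut out by hand and pooled with matched stages and sex ratios, and each pool is 1 replicate.

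Hand2 itself had 7, 26, 10 and 14 reads in the null libraries, against 2123, 1224 and 1194 reads in the wild-type ones, so each library matched its label. The libraries held 27905601 to 44860753 reads in genes. A count of 3 reads, taken as the detection floor, equalled 0.0669 to 0.1075 CPM, the read count scaled to the library's total in genes, and covers counting error only. The 4 canal markers Tbx2, Tbx3, Bmp2 and Msx2 summed to 167 to 217 CPM in null and 150 to 262 CPM in wild-type pools, and none was called. Summed markers of 3 other cell types did not overlap between the genotypes. Endothelial markers reached 372 to 435 CPM in null against 237 to 263 CPM in wild-type pools (4 of 7 called higher). Epithelial markers reached 725 to 902 against 255 to 282 CPM (3 of 6 tested called higher). Those called were the keratins Krt8, Krt18 and Krt19, which made up most of the sum. Epcam, Cdh1 and Cldn6 were not called, and Foxa2 and Shh were not tested. Cushion mesenchyme markers reached 313 to 428 against 504 to 770 CPM (5 of 6 called lower). In bulk RNA, more or fewer cells of a type and more or less RNA per cell cannot be told apart.

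Integrins are cell surface receptors, each made of 1 alpha and 1 beta subunit, that attach cells to matrix and pass signals in both directions across the membrane. Laminins are cross-shaped trimers of an alpha, a beta and a gamma chain that form the sheet of the basement membrane. Nidogens and perlecan join that sheet to the collagen IV network, agrin binds laminins, nephronectin binds an integrin, and fibronectin forms a separate fibrillar matrix. In the atrioventricular canal the endocardium lies on such a sheet facing the cardiac jelly, and endocardial cells leave it when they become cushion mesenchyme.

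Null canals contained more transcript of the laminin chains Lama3 and Lamb1, of nidogen 2 (Nid2) and of the collagen-binding integrin subunit Itga2. Of the 42 members, 37 passed the filter on low counts and were tested. Among these 37, 4 (10.8%) rose and none fell at an edgeR adjusted p under 0.05, against 4.11% of all 14290 tested genes called higher and 2.13% called lower. The median log2 fold change, null over wild type, was 0.29 over the tested members and 0.02 over all tested genes. It was positive for 27 members and negative for 10, that is positive in 73.0% of members and 52.3% of all genes. At an unadjusted p under 0.05, 10 members were higher and 1 was lower, together 29.7% of members against 24.4% of all genes. DESeq2 called 6 members higher and none lower, but it also called more of all genes (992 higher and 769 lower, against 587 and 305 by edgeR). DESeq2 filtered low counts in its own way, so no share is given for it.

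In 6 members (16.2%) all 4 null values lay above all 3 wild-type values, against 11.6% of all tested genes. These were the 4 called members and the subunits Itga1 and Itgb1, compared in CPM before the TMM scaling of the tests. In no member did all null values lie below all wild-type values, against 10.3% of all tested genes. The calls were sensitive to the libraries used. With either of wild-type replicates 2 and 3 left out no member was called, and without null replicate 2 only Lama3 was. Without null replicate 3 there were 6 higher and 1 lower. The calls over all genes moved too, from 587 higher and 305 lower with all 7 libraries. They were 210 and 46 without wild-type replicate 2, and 246 and 68 without wild-type replicate 3. Without null replicate 2 they were 389 and 150, and without null replicate 3 they were 946 and 652.

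**Figure D1:**
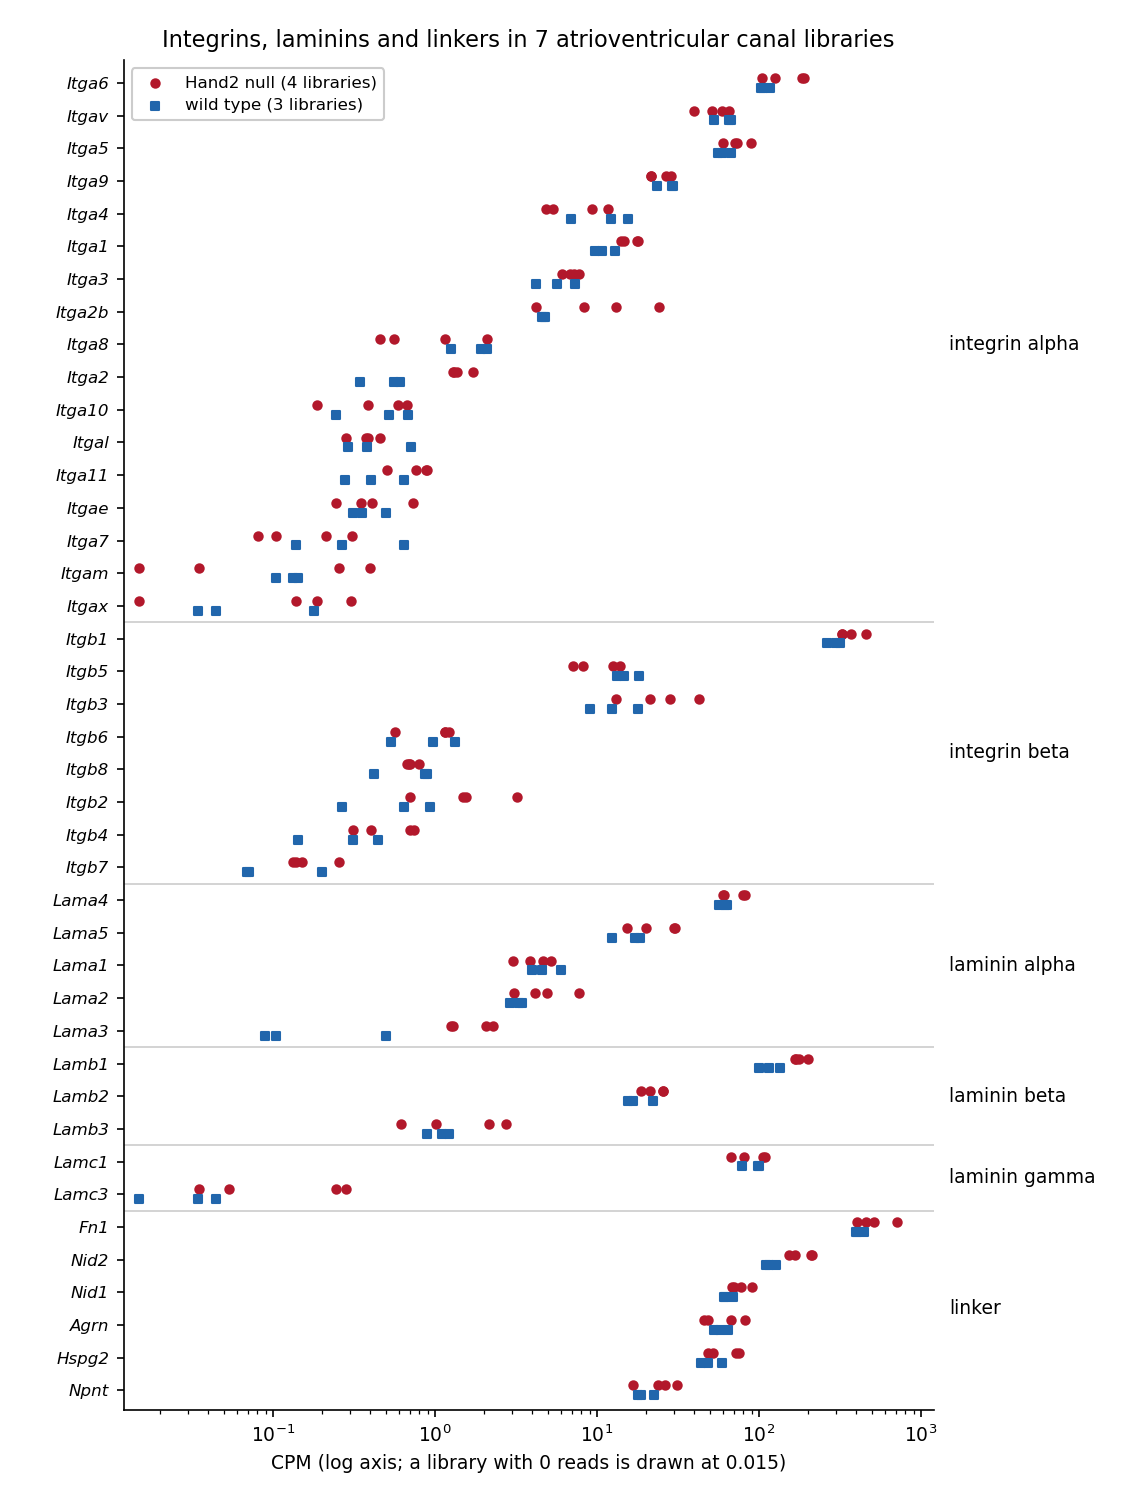
Level of the members in each library, in CPM on a log axis, grouped by role and ordered by the wild-type mean; circles are the 4 null libraries and squares the 3 wild-type libraries. Itgb1 and Fn1 lie highest, Lama3 and Itga2 show a gap between genotypes at a low level, and most other members overlap.

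**Figure D2:**
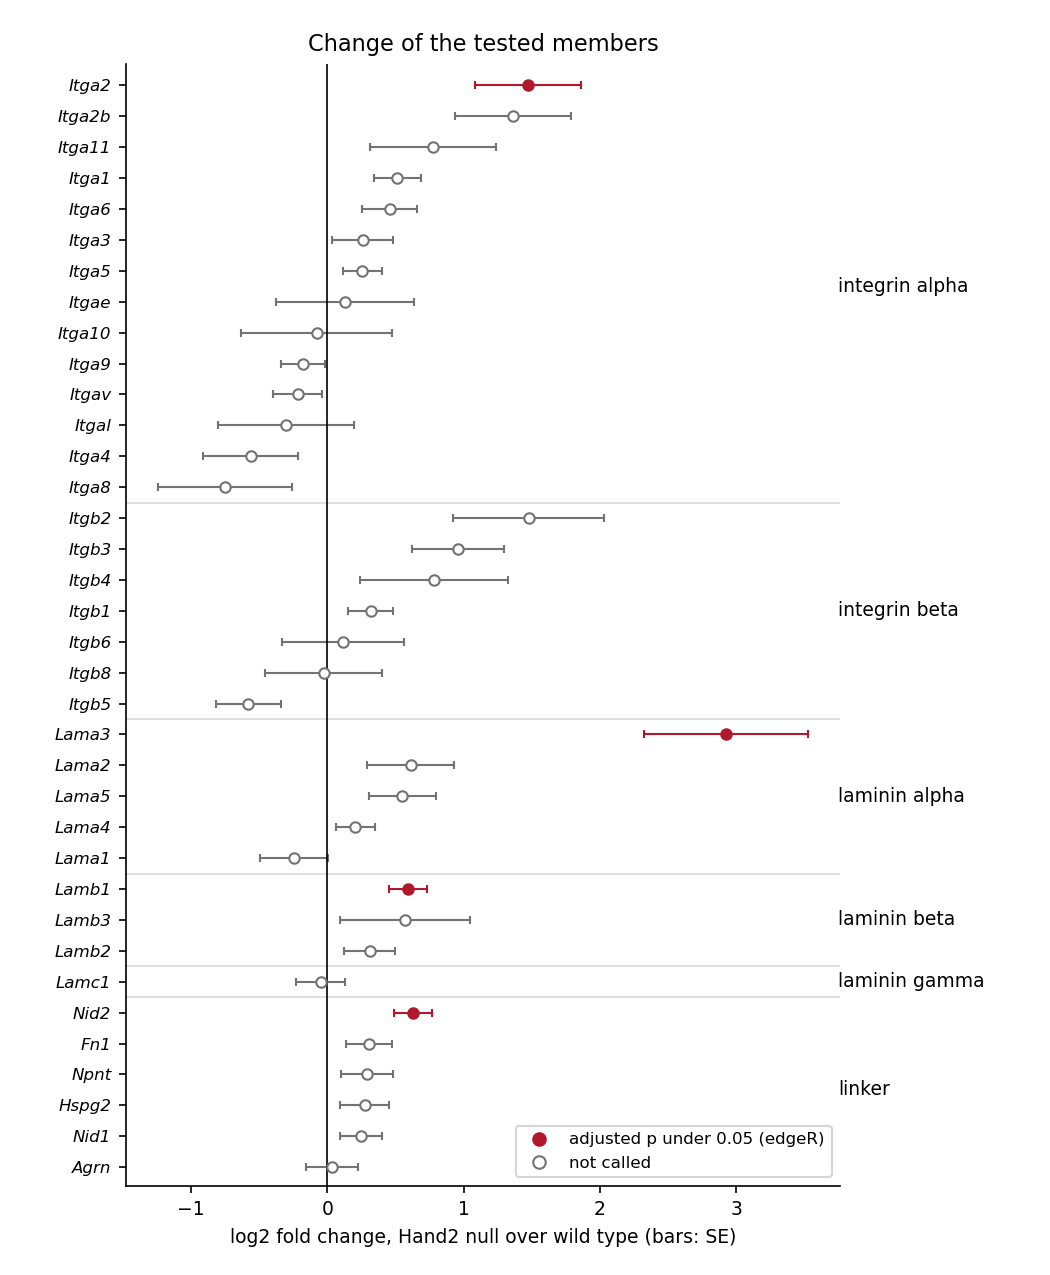
Log2 fold change of null over wild type for the tested members, grouped by role, with bars of 1 standard error. Filled points are the 4 members called at an edgeR adjusted p under 0.05, and open points lie on both sides of 0 with 10 of them below it.

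The alpha chains decide which cell receptors a laminin binds. Lama3, the alpha chain of epithelial laminins, had 1.29, 2.28, 2.06 and 1.26 CPM in null replicates 1 to 4, against 0.0892, 0.104 and 0.502 CPM in wild-type replicates 2 to 4. In reads this was 48, 75, 59 and 49 in the null libraries and 4, 3 and 14 in the wild-type libraries. Every null library exceeded every wild-type library, and wild-type replicate 3 lay at the floor. An exon of Lama3 overlaps Gm29200 on the other strand in the GENCODE annotation (GRCm38); that gene was not analysed here, and its reads cannot be told apart from those of Lama3 in unstranded libraries. The log2 fold change was 2.92 (SE 0.601, edgeR adjusted p = 0.0155), and it was 4.08 (edgeR adjusted p = 0.00399) without wild-type replicate 4, the wild-type library with most Lama3 reads. Without wild-type replicate 2 or 3 it was 2.47 or 2.61 and lost its call (edgeR adjusted p = 0.0851 and 0.0765).

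Lamb3, a beta chain of epithelial laminin, was tested and not called (log2 fold change 0.57, SE 0.475, edgeR adjusted p = 0.499). It averaged 1.63 ± 0.987 CPM in null canals and 1.07 ± 0.166 CPM in wild type (SD, n = 4 and 3). Itgb4, the beta subunit of the epithelial laminin receptor, was low at 0.314 to 0.745 CPM in null and 0.143 to 0.446 CPM in wild-type pools. These values overlapped, and Itgb4 was not called (log2 fold change 0.78, SE 0.54, edgeR adjusted p = 0.403). The keratins Krt8, Krt18 and Krt19, which mark simple epithelia, rose together with Lama3. Krt19 had 464, 561, 502 and 368 CPM in null replicates 1 to 4 against 89.2, 85.1 and 89.8 CPM in wild-type replicates 2 to 4. The 3 keratins made up most of the summed epithelial markers, while the junction gene Epcam had 0.429 to 4.88 CPM in null and 0.899 to 2.43 CPM in wild-type pools. Shh had no read in 4 of the 7 libraries, all 3 wild-type ones among them. The part of epithelial cells in the Lama3 result was not tested.

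Laminin alpha transcripts were dominated by Lama4, the chain of endothelial and mesenchymal basement membranes. Per kilobase of exon, Lama4 made up 71.3% to 85.4% of laminin alpha transcript in null and 79.6% to 83.2% in wild-type pools. It had 61.1, 82.6, 60.3 and 80.2 CPM in null replicates 1 to 4 against 63.3, 61.6 and 56.8 CPM in wild-type replicates 2 to 4 (log2 fold change 0.21, SE 0.143, edgeR adjusted p = 0.406). The genotypes overlapped, with null replicates 2 and 4 above the rest. Lama5, a broadly used alpha chain of epithelial and endothelial sheets, had 20.2, 30.2, 30.0 and 15.4 CPM in the null against 17.3, 18.4 and 12.5 CPM in wild type (0.55, SE 0.245, edgeR adjusted p = 0.192). Null replicates 2 and 3 were high, and null replicate 4 lay within the wild-type range. Lama1, the alpha chain of the earliest embryonic membranes, averaged 4.17 ± 0.948 against 4.85 ± 1.03 CPM, and Lama2, the chain of muscle, 4.95 ± 1.99 against 3.22 ± 0.289 CPM (SD, n = 4 and 3), and neither was called.

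Lamb1 is the main beta chain of embryonic laminins. It had 166, 201, 168 and 178 CPM in null replicates 1 to 4, against 99.9, 115 and 135 CPM in wild-type replicates 2 to 4. All null libraries lay above all wild-type libraries, with null replicate 2 highest and wild-type replicate 2 lowest. Lamb1 rose by 0.59 on the log2 scale (SE 0.138, edgeR adjusted p = 0.0267), from 6214, 6613, 4827 and 6919 reads in the null and 4482, 3328 and 3764 reads in wild type. Over the fits with 1 library left out the change stayed between 0.49 and 0.69, and the call was lost when any of null replicates 1 and 2 or wild-type replicates 2 and 3 was left out (edgeR adjusted p = 0.071, 0.0643, 0.18 and 0.117). The summed endothelial markers given above were higher in the same 4 libraries, with Pecam1, Tie1, Kdr and Vwf called. Cdh5, Emcn and Tek were not called (log2 fold changes 0.51, 0.34 and 0.08), and Emcn and Tek overlapped between the genotypes. The part of endothelial cells in the Lamb1 and Nid2 results was not tested.

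Lamc1 and Lamb2 were not called. Lamc1, the gamma chain found in most laminins, had 81.0, 108, 107 and 67.2 CPM in null replicates 1 to 4 against 100.1, 98.5 and 79.1 CPM in wild-type replicates 2 to 4 (log2 fold change -0.05, SE 0.18, edgeR adjusted p = 0.902). The null values spread on both sides of the wild-type values, and the sign of the change turned when single libraries were left out. Lamb2, the beta chain of synaptic, muscle and vascular membranes, had 18.7, 21.3, 25.7 and 25.4 CPM in the null against 16.8, 22.0 and 15.5 CPM in wild type (0.31, SE 0.185, edgeR adjusted p = 0.329). Per kilobase of exon, Lamb1 exceeded Lamc1 2.68, 2.42, 2.06 and 3.45 times in null replicates 1 to 4 and 1.30, 1.52 and 2.23 times in wild-type replicates 2 to 4. These ratios overlapped at null replicate 3 and wild-type replicate 4. Lamc3 had at most 11 reads in a library and was not tested.

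HAND2 is a basic helix-loop-helix factor, and such factors bind E-boxes, 6-base sites of the form CANNTG, a pattern that matches on both strands at once. The 250 bases before the annotated start are shown for the called members Lamb1 and Itga2 and for Itga1, the neighbour of Itga2, on the gene's own strand, with E-boxes in capitals. The windows are RefSeq's, of build GRCm38.p6, and were matched by symbol, while the counts were made on mm9. They lie at chr12:31265043-31265292 on the plus strand (Lamb1), and at chr13:114932101-114932350 (Itga2) and chr13:115101965-115102214 (Itga1) on the minus strand. For the called members Nid2 and Lama3 no window is shown.
Lamb1: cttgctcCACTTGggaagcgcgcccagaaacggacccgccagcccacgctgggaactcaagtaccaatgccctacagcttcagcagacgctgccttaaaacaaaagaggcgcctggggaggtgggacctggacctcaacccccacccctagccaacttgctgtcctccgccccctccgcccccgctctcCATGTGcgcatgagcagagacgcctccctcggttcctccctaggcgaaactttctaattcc
Itga2: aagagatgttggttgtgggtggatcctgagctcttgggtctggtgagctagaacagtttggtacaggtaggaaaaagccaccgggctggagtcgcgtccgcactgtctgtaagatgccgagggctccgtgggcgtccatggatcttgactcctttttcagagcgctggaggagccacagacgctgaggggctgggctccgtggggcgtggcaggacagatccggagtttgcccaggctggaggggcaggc
Itga1: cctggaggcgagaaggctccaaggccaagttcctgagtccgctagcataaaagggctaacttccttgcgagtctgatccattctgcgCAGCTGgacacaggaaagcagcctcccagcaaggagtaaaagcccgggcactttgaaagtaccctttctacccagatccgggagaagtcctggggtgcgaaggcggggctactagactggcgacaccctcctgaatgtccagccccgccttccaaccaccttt
Lamb1 held 2 E-boxes, CACTTG and CATGTG, starting 243 and 61 bases before the start. Itga1 held 1, CAGCTG, starting 163 bases before it, and Itga2 held none in this window. At least 1 E-box occurred in 66.2% of all 32851 windows of this length and in 71.9% of the 32 windows of the 27 members that matched. Such a match to a short pattern is a description of the letters only.

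Nid2, a nidogen that bridges laminin and collagen IV, had 154, 212, 166 and 210.2 CPM in null replicates 1 to 4, against 111, 116 and 127 CPM in wild-type replicates 2 to 4. The lowest null library exceeded the highest wild-type library, with null replicates 2 and 4 well above the other two. Nid2 rose by 0.63 on the log2 scale (SE 0.14, edgeR adjusted p = 0.0215). It ranged from 0.56 to 0.68 over the fits with 1 library left out, and lost its call when null replicate 2, or either of wild-type replicates 2 and 3, was left out (edgeR adjusted p = 0.0526, 0.14 and 0.101). In the GENCODE annotation (GRCm38) an exon of Nid2 overlaps Rtraf on the other strand, and these reads carry no strand. Rtraf, listed in the counts as 2700060E02Rik, averaged 243 ± 46.4 CPM in null canals and 282 ± 18.2 CPM in wild type (SD, n = 4 and 3; not called).

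Nid1, the other nidogen, had 78.0, 67.7, 91.2 and 69.7 CPM in the null against 69.3, 62.2 and 60.7 CPM in wild-type canals (log2 fold change 0.25, SE 0.154, edgeR adjusted p = 0.354). Its values overlapped through null replicate 2 and wild-type replicate 2. Per kilobase of exon, Nid2 exceeded Nid1 2.28 to 3.90 times in null and 2.00 to 2.61 times in wild-type pools, again with overlap. Fibronectin (Fn1), the ligand of several integrins, was the most abundant linker and made up 43.7% to 52.4% of linker transcript per kilobase in null and 48.4% to 51.0% in wild-type pools. It had 401, 716, 513 and 457 CPM in null replicates 1 to 4 against 445, 396 and 402 CPM in wild-type replicates 2 to 4 (0.31, SE 0.17, edgeR adjusted p = 0.293). Null replicate 2 stood far above the rest and null replicate 1 lay within the wild-type range. An exon of Fn1 overlaps Apol7d on the other strand.

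The remaining linkers overlapped between the genotypes. Perlecan (Hspg2), the heparan sulfate proteoglycan of basement membranes, averaged 62.0 ± 13.8 CPM in null canals and 50.4 ± 7.57 CPM in wild type. Agrin (Agrn), which links laminin to dystroglycan, averaged 60.8 ± 16.9 against 58.4 ± 5.96 CPM. Nephronectin (Npnt), the ligand of the integrin with the Itga8 subunit, averaged 24.6 ± 6.09 against 19.7 ± 2.46 CPM (SD, n = 4 and 3). Their log2 fold changes were 0.27 (SE 0.18), 0.03 (SE 0.19) and 0.29 (SE 0.193), and that of Agrn turned negative without null replicate 2, null replicate 3 or wild-type replicate 4.

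Among the 17 integrin alpha subunits, 14 were tested and 1 rose. That was Itga2, a collagen receptor subunit, with 1.37, 1.31, 1.29 and 1.72 CPM in null replicates 1 to 4 against 0.557, 0.346 and 0.609 CPM in wild-type replicates 2 to 4. The null libraries lay close together, all above the highest wild-type library. The reads were 51, 43, 37 and 67 against 25, 10 and 17, and the log2 fold change was 1.47 (SE 0.388, edgeR adjusted p = 0.0453). Itga2 stayed called in 1 of the 7 fits with 1 library left out, the one without null replicate 3, and in the others the edgeR adjusted p was 0.0708 to 0.19. Its log2 fold change in the 7 fits was 1.28 to 1.599. It also lost its call with no filter on low counts (edgeR adjusted p = 0.0532).

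Itga1, the neighbouring gene on chromosome 13 and also a collagen receptor subunit, had 14.6, 17.9, 17.6 and 14.1 CPM in the null against 12.8, 9.76 and 10.7 CPM in wild type. The genotypes did not overlap, by a margin of little more than 1 CPM between null replicate 4 and wild-type replicate 2, and the difference was not called (log2 fold change 0.51, SE 0.173, edgeR adjusted p = 0.0979). The other collagen receptor subunits were scarce. Itga11 averaged 0.764 ± 0.18 against 0.441 ± 0.187 CPM and Itga10 0.458 ± 0.217 against 0.482 ± 0.22 CPM (SD, n = 4 and 3), and neither was called.

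**Figure D3:**
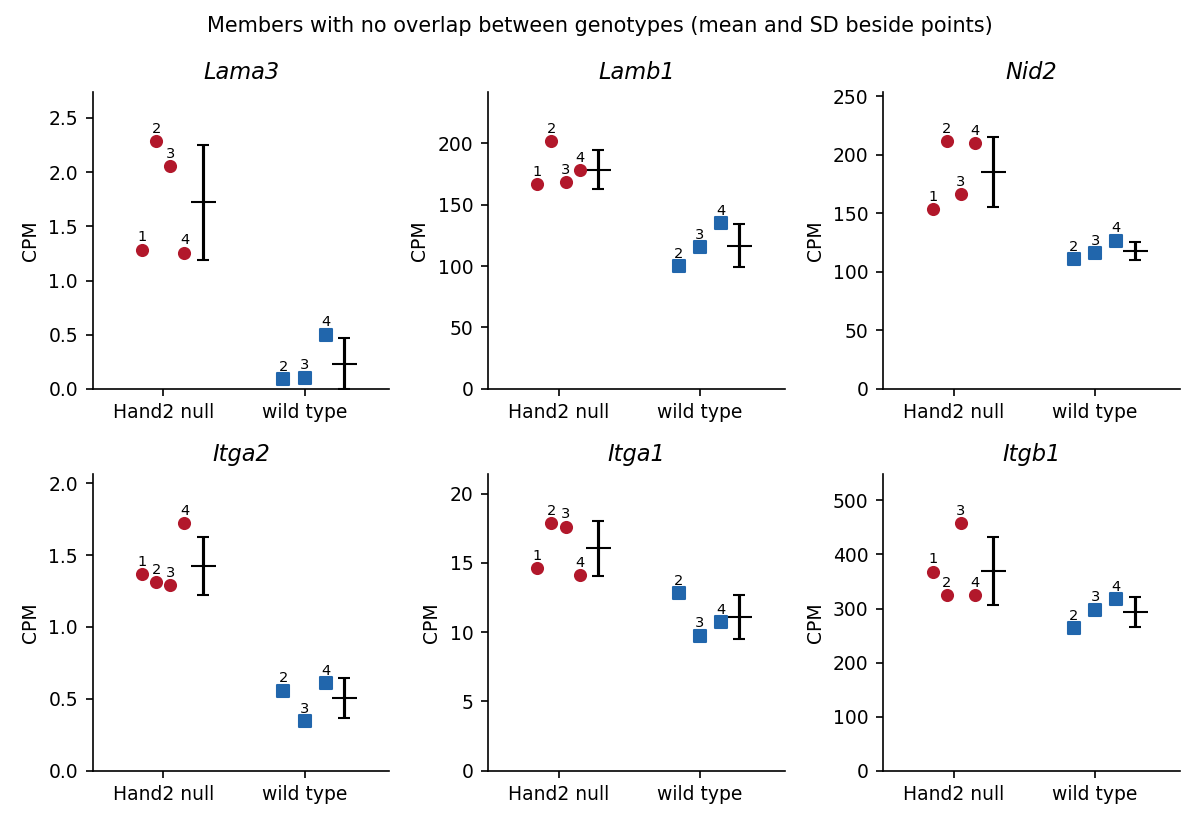
CPM in each library for the 6 members whose null values all lie above their wild-type values, on linear axes from 0, with the replicate number at each point and mean and SD beside them. Lama3, Lamb1, Nid2 and Itga2 were called, while Itga1 and Itgb1 were not.

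The abundant alpha subunits were Itga6, Itga5 and Itgav, in that order per kilobase in both genotypes. Itga6, a laminin receptor subunit, had 126, 190.2, 184 and 104 CPM in null replicates 1 to 4 against 105, 117 and 103 CPM in wild-type replicates 2 to 4 (log2 fold change 0.46, SE 0.199, edgeR adjusted p = 0.183). Null replicates 2 and 3 were high and null replicate 4 was within the wild-type range. Itga5, the fibronectin receptor subunit, had 60.4, 90.0, 71.0 and 73.3 CPM in the null against 66.8, 55.5 and 59.6 CPM in wild type (0.26, SE 0.143, edgeR adjusted p = 0.293). Itgav, the subunit shared by receptors for RGD ligands and latent TGF-beta, had 51.1, 59.0, 65.6 and 39.6 CPM in the null against 67.1, 65.8 and 52.6 CPM in wild type (-0.22, SE 0.182, edgeR adjusted p = 0.499). Both subunits overlapped between the genotypes, Itga5 with null replicate 2 highest and Itgav with null replicate 4 lowest.

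Of the other alpha subunits, Itga9 and Itga4, receptors for fibronectin and VCAM1 among others, averaged 24.5 ± 3.57 and 7.82 ± 3.26 CPM in null canals and 27.4 ± 3.34 and 11.5 ± 4.31 CPM in wild type (SD, n = 4 and 3). Itga3, a laminin receptor subunit, averaged 6.98 ± 0.678 against 5.74 ± 1.54 CPM, and Itga8, the nephronectin receptor subunit, 1.07 ± 0.757 against 1.76 ± 0.447 CPM. None of these 4 was called, and their log2 fold changes ran from -0.75 for Itga8 to 0.26 for Itga3. Exons of Itga4 and Itga8 overlap genes on the other strand that have their own rows in the counts. How reads in the shared stretches were counted is not given. The leukocyte subunits Itgae and Itgal had at most 0.731 CPM in any library and were not called. Itgam, Itgax and the muscle laminin receptor Itga7 had at most 18 reads in a library and were not tested.

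Beta subunit transcript was mostly Itgb1, the partner of most alpha subunits, with 87.0% to 94.5% of the beta total per kilobase in null and 91.0% to 91.7% in wild-type pools. It had 368, 324.2, 458 and 324.2 CPM in null replicates 1 to 4 against 264, 298 and 318 CPM in wild-type replicates 2 to 4. The groups did not overlap in CPM, but the lowest null and the highest wild-type library lay close. With the TMM factors of the test (1.059 for null replicate 2, 1.003 for wild-type replicate 4), these libraries change order and the groups overlap. Itgb1 was not called (log2 fold change 0.32, SE 0.165, edgeR adjusted p = 0.26). Itgb5, a partner of Itgav, had 8.25, 12.6, 14.0 and 7.16 CPM in the null against 14.7, 13.4 and 18.3 CPM in wild type. Its log2 fold change was -0.58, with SE 0.239 and edgeR adjusted p = 0.16, and was the only negative one among members with an unadjusted p under 0.05. Null replicate 3 overlapped with wild type, and without it Itgb5 was called lower (-0.77, edgeR adjusted p = 0.0444). That fit called 652 of all genes lower, against 305 with all libraries. Itgb6, Itgb8 and Itgb4 lay between 0.143 and 1.33 CPM in every library and were not called, and Itgb7 was not tested.

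Itga2b and Itgb3 form the fibrinogen receptor of platelets, and Itgb3 also pairs with Itgav. Itga2b had 4.20, 24.2, 8.34 and 13.1 CPM in null replicates 1 to 4 against 4.59, 4.70 and 4.80 CPM in wild-type replicates 2 to 4 (log2 fold change 1.36, SE 0.429, edgeR adjusted p = 0.0798). Itgb3 had 13.1, 43.0, 28.3 and 21.2 CPM in the null against 12.5, 18.0 and 9.10 CPM in wild type (0.96, SE 0.339, edgeR adjusted p = 0.11). For both, null replicate 2 was highest by far, while null replicate 1 lay just below the wild-type values for Itga2b and among them for Itgb3. DESeq2 called both higher (DESeq2 adjusted p = 0.0101 and 0.0339), and Itga2b was also called without null replicate 1 (1.63, edgeR adjusted p = 0.024) or null replicate 3 (1.497, edgeR adjusted p = 0.0447). Over all genes 284 were called higher without null replicate 1 and 946 without null replicate 3, against 587 with all libraries.

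The 6 platelet and megakaryocyte markers moved in the same libraries, summing to 14.7, 202, 82.5 and 35.6 CPM in null replicates 1 to 4 against 15.1, 27.9 and 27.2 CPM in wild-type replicates 2 to 4. All 6 had reads, and none of the 5 tested was called. Pf4, a platelet chemokine, made up most of that sum, with 166 CPM in null replicate 2. Fermt3, the kindlin of blood cells that activates such integrins, had 4.85, 30.8, 7.60 and 8.04 CPM in the null against 3.37, 3.46 and 5.30 CPM in wild type and was not called (edgeR adjusted p = 0.085). The part of platelet-lineage cells in the values of Itga2b and Itgb3 was not tested. Itgb2, the beta subunit of leukocytes, had 1.55, 3.197, 0.698 and 1.49 CPM in the null against 0.267, 0.934 and 0.645 CPM in wild-type canals (log2 fold change 1.48, SE 0.554, edgeR adjusted p = 0.127). Itgb2 was called without null replicate 3 (1.73, edgeR adjusted p = 0.0485), a fit that called 946 of all genes higher, against 587 with all libraries. The 10 leukocyte markers summed to 14.1 to 26.8 CPM in null and 17.8 to 18.9 CPM in wild-type pools, and their part was not tested. Of the 6 tested, Mrc1 was called higher (log2 fold change 1.86, edgeR adjusted p = 0.0364) and Lyz2 lower (-0.86, edgeR adjusted p = 0.0237), and Fcgr1 had reads only in null replicate 2.

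**Figure D4:**
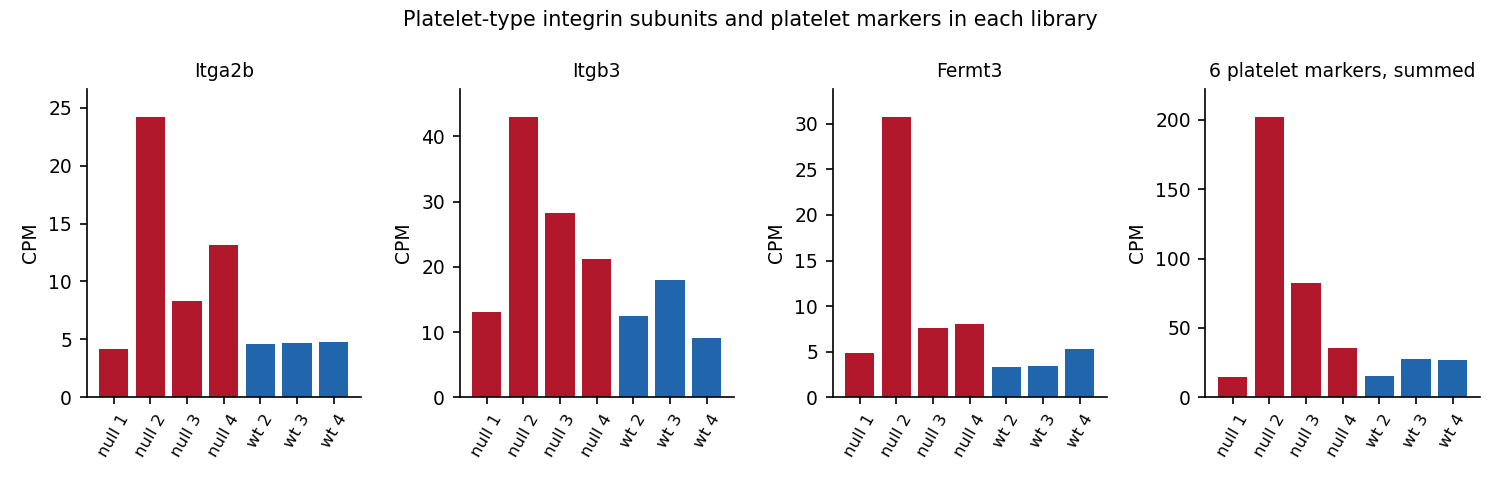
CPM of Itga2b, Itgb3, Fermt3 and the sum of 6 platelet markers in each library, on linear axes from 0, null libraries at the left in red and wild-type libraries at the right in blue. Null replicate 2 is the highest library in all 4 panels, and null replicate 1 is at or near the wild-type level.

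The null libraries varied among themselves more than the wild-type libraries did. The median coefficient of variation of the tested members reached 23.6% among null pools and 16.4% among wild-type pools, against 20.2% and 14.6% over all tested genes. Among the null libraries, replicate 2 held the highest value of 22 of the 37 tested members (59.5%, against 31.2% of all tested genes), replicate 3 that of 10 (27.0%, against 27.5%) and replicate 4 that of 5 (13.5%, against 29.2%). Null replicate 1 held the highest value of no tested member, against 12.1% of all tested genes, and the lowest value of 18 of the 37, against 21.8% of all tested genes. The 42 members together took 1793, 2456, 2246 and 1881 CPM in null replicates 1 to 4 and 1672, 1663 and 1646 CPM in wild-type replicates 2 to 4. Reads that fell in no gene were also most frequent in null replicate 2 (14.2%, against 7.31% to 9.998% in the others), and the part of that difference in these values was not tested.

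**Figure D5:**
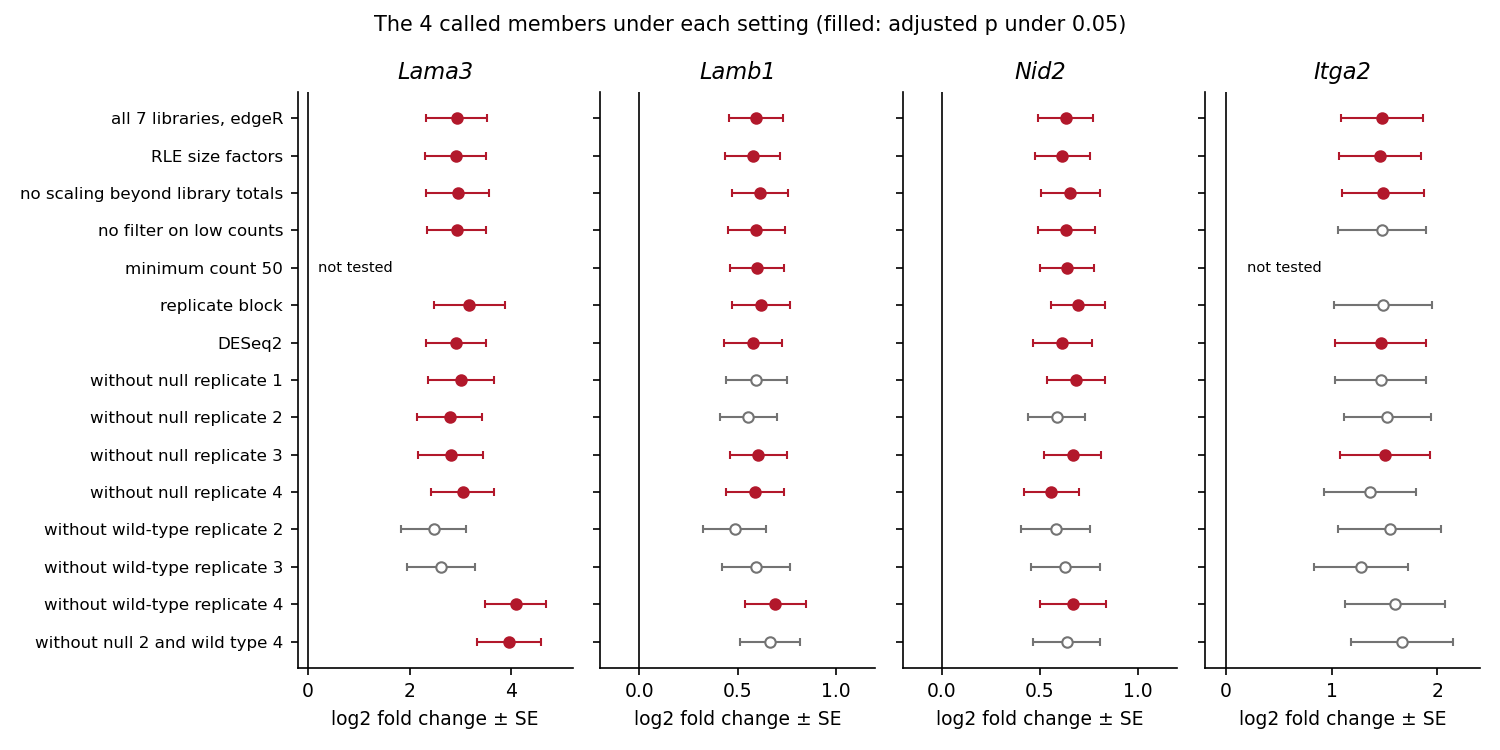
Log2 fold change with its standard error for the 4 called members under each processing setting and with libraries left out; filled points have an adjusted p under 0.05. All points lie above 0, while calls are lost for all 4 members when either of wild-type replicates 2 and 3 is left out.

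Inside the cell, integrin tails are bound by talins, kindlins, the ILK-PINCH-parvin complex and focal adhesion kinases. A list of 36 such partners was drawn up with earlier results of these data known, so its shares describe the list only. All 36 were tested, 4 rose (11.1%, against the 4.11% of all genes) and none fell (against 2.13%). Their median log2 fold change was 0.18. At an unadjusted p under 0.05, 10 of them were higher and 3 lower, together 36.1% against 24.4% of all tested genes. DESeq2 called 6 higher and 1 lower, and over all genes 992 higher and 769 lower, against 587 and 305 by edgeR. It filtered low counts in its own way, so no share is given. Lims2, the PINCH protein that joins ILK to the actin machinery, had 11.3, 27.7, 16.4 and 10.7 CPM in null replicates 1 to 4 against 1.45, 2.42 and 2.90 CPM in wild-type replicates 2 to 4 (log2 fold change 2.85, SE 0.362, edgeR adjusted p = 0.000909). All null libraries were far above wild type, whereas the related Lims1 averaged 120 ± 15.2 against 129 ± 5.54 CPM (SD, n = 4 and 3; not called). Bcar1, the adhesion scaffold p130Cas, rose by 0.84 (SE 0.136, edgeR adjusted p = 0.00413). The kinase gene Ptk2b rose by 0.76 (SE 0.145, edgeR adjusted p = 0.0107), and Fblim1, which links kindlin to filamin, by 0.66 (SE 0.159, edgeR adjusted p = 0.0325).

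Lims2 and Bcar1 stayed called with any 1 library left out. Ptk2b lost its call without wild-type replicate 2 or 3, and Fblim1 without null replicate 2 or any wild-type library. Ilk itself averaged 308 ± 36.8 against 228 ± 19.5 CPM and Parva 120 ± 10.3 against 89.1 ± 4.43 CPM (SD, n = 4 and 3). Both were without overlap and neither was called (edgeR adjusted p = 0.0796 and 0.0705). The talins Tln1 and Tln2 had log2 fold changes of 0.16 (SE 0.17) and -0.40 (SE 0.142), and the kinase Ptk2 of 0.29 (SE 0.152), none of them called.

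A list of 38 other basement membrane components and integrin ligands was likewise drawn up with earlier results known, so its shares describe the list only. Of these genes 34 were tested, 5 rose (14.7%, against the 4.11% of all genes) and 1 fell (against 2.13% of all genes). Their median log2 fold change was 0.35. Collagen IV, the network that nidogens tie to laminin, overlapped between the genotypes, with Col4a1 at 177 ± 49.4 against 174 ± 38.2 CPM and Col4a2 at 80.8 ± 25.5 against 84.3 ± 19.98 CPM (SD, n = 4 and 3; not called). The related FRAS and FREM proteins, which assemble into 1 complex under epithelia, did not move together. Frem1 fell to 5.45 ± 0.834 CPM in the null, against 13.8 ± 1.01 CPM in wild type (SD, n = 4 and 3), with no overlap (log2 fold change -1.36, SE 0.178, edgeR adjusted p = 0.00105). Frem2 rose by 1.18 (SE 0.316, edgeR adjusted p = 0.0482), and Fras1 was not called (0.41, SE 0.224).

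The other called ligands bind integrins outside the basement membrane. Ctgf and Cyr61, matricellular proteins, rose by 1.54 (SE 0.23, edgeR adjusted p = 0.00261) and 1.22 (SE 0.265, edgeR adjusted p = 0.0205). Mfge8, an RGD ligand of Itgav receptors, rose by 0.83 (SE 0.135, edgeR adjusted p = 0.00413), with 497 ± 57.1 CPM in null canals and 275 ± 29.9 CPM in wild type (SD, n = 4 and 3). Icam1, a ligand of leukocyte integrins, rose by 1.77 (SE 0.378, edgeR adjusted p = 0.0181). Frem1, Ctgf and Mfge8 stayed called with any 1 library left out. Icam1 lost its call without null replicate 1 or wild-type replicate 2, and Cyr61 without any wild-type library. Frem2 kept its call only without null replicate 4. The laminin receptor Dag1 (dystroglycan) averaged 187.5 ± 17.3 against 139.5 ± 7.30 CPM without overlap and was not called (edgeR adjusted p = 0.081), and the receptor Bcam overlapped.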

How the data were processed

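RNA from 4 null and 3 wild-type pools was depleted of ribosomal RNA, made into unstranded low-input libraries and sequenced as single reads of 50 nt, per the labels' protocols. The deposited files hold whole-number read counts per gene symbol, made by the authors with TopHat2 2.0.13, HTSeq and SAMtools on build mm9, per the submitters' processing notes. Which annotation and settings the counting used is not given in the sources used here. The 5 summary lines of each file were left out. Reads in no gene were 7.31% to 14.21%, in more than 1 gene 1.46% to 1.69%, and aligned to several places 9.08% to 13.81%. The last are missing from the counts, and reads were counted without molecular identifiers, so PCR copies count too.

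Levels and overlaps are in CPM over gene rows, without the TMM factors of the tests. Levels between genes were compared per kilobase of exon, from the protein-coding transcripts of GENCODE M21 (GRCm38). Exons of 11 members overlap a gene on the opposite strand there. Exons of Itga1, Itga10 and Itgam overlap a gene on the same strand, whose symbol is not in the counts. Tests used edgeR 4.0.16 (quasi-likelihood F test, TMM, filterByExpr with minimum count 10, genotype as the only term, 5 residual degrees of freedom) in R 4.3.3 over all genes, with Benjamini-Hochberg adjustment and a threshold of 0.05. The SE of a log2 fold change is its size over the root of F. Alternatives were DESeq2 1.42.0, other scalings and filters, the replicate number as a block, and libraries left out. In counts simulated for this comparison over 14099 genes, changes were set only in genes averaging at least 50 reads per library. There 13.4% of 1.5-fold, 73.1% of 2-fold and 98.5% of 4-fold changes were recovered, with 8 false among 131 calls. Recovery in genes with fewer reads, Lama3 and Itga2 among them, was not simulated. Pools of 1 genotype differed by far more than sampling noise. Members, lists and the naming rule were chosen with earlier results of these data known. The rule gives library values for members that were called, did not overlap between genotypes, or were among the 3 highest per kilobase in their role, and names called partner genes. The values of 1 member, which is counted in the totals, are not reported here. Library values of Itga2b, Itgb2, Krt19 and Fermt3, and the other partner genes and markers, were added after their values were seen.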

Additional observations from a re-analysis of the deposited data

Results flagged for a closer look

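Of the 42 members checked over the 4 null libraries, 2 had a library whose distance from its nearest neighbour took up more of the group's range than Dixon's 95% critical value allows. Chance alone gives about 1 such case in 20 groups. Itgb6, a partner of Itgav in epithelia, had 0.565 CPM in null replicate 4, against 1.15 to 1.22 CPM in the other null libraries, and the distance took up 0.894 of the range. Itgb7, a leukocyte subunit that was not tested, had 0.2568 CPM (10 reads) in null replicate 4, against 0.134 to 0.152 CPM in the other null libraries (0.851 of the range).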

How the results depend on the processing

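The calls among members rest on few libraries. Leaving out 1 library at a time gave 0 to 6 members higher and 0 to 1 lower, with 0 higher when either of wild-type replicates 2 and 3 was left out. Over the same fits 210 to 946 of all genes were higher and 46 to 652 lower, 2 to 5 intracellular partners were higher, and 2 to 7 basement membrane and ligand genes were higher and 1 to 2 lower. A minimum count of 50 left 2 members higher, since Lama3 and Itga2 were then not tested. Leaving out null replicate 2 and wild-type replicate 4 together left 1 member higher (Lama3), 298 of all genes higher and 123 lower, and 2 intracellular partners higher. With no filter on low counts 8 basement membrane and ligand genes were higher. DESeq2 called 992 of all genes higher and 769 lower, 1 intracellular partner lower, and 10 basement membrane and ligand genes higher and 2 lower.

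Whether the numbers of the pools pair them cannot be settled from these libraries. The deviations of same-numbered null and wild-type pools correlated at -0.07, 0.257 and 0.166 for replicates 2, 3 and 4. Null replicates 3 and 4 each correlated most with their own number, while null replicate 2 correlated most with wild-type replicate 4 (0.137). With the replicate number as a block, 5 members were higher. Itga2b (1.54) and Itgb3 (1.18) gained a call (edgeR adjusted p = 0.00782 and 0.0069) and Itga2 lost its own (edgeR adjusted p = 0.066). The block called 814 of all genes higher and 565 lower, against 587 and 305 without it. It called 7 intracellular partners higher, and 8 basement membrane and ligand genes higher and 2 lower. It turned the log2 fold changes of Itga10 (0.23) and Itgb8 (0.018).

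Other members that changed sign were never called. Leaving out null replicate 2 and wild-type replicate 4 together gave -0.18 for Agrn, 0.040 for Itga10, 0.059 for Itgal and 0.20 for Itgb8. With 1 library left out, the log2 fold change of Agrn ran from -0.11 to 0.12, of Itga10 from -0.43 to 0.23, of Itgae from -0.20 to 0.32, of Itgal from -0.57 to 0.13, of Itgb6 from -0.19 to 0.42, of Itgb8 from -0.32 to 0.13 and of Lamc1 from -0.17 to 0.065. The causes of these changes were not tested. Other scalings moved the median of all genes to between 0.006 and 0.04 and changed no member's call or direction. Depth limits Lama3 and Itga2, which rest on at most 75 reads in a library.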
